A study of Mus musculus with 12 samples.

Results

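The response to antigen receptor crosslinking was followed in primary mouse B cells that carried a calmodulin-resistant form of E12, the transcription factor made from the Tcf3 (E2A) gene. The comparison set the 3 arrays of mutant E12 cells treated with anti-IgM against the 3 arrays of untreated mutant E12 cells, chosen by their sample titles, which is 6 of the 12 arrays of the series. All cells were splenic B cells of C57BL/6 mice aged 8 weeks that were heterozygous for a deletion of E2A. In all groups the cells were activated with IL-4 (5 ng/ml) and CD40L (200 ng/ml) for 14 h, infected in 2 rounds of 12 h with retrovirus carrying E12 and GFP in the presence of LPS (200 ng/ml), and kept for 22 h. The treated groups then received a goat F(ab')2 antibody to mouse IgM at 2.5 μg/ml for 3 h. GFP-positive cells were sorted for the arrays in all groups. There were 4 groups of 3 arrays each: treated and untreated cells with mutant E12, and treated and untreated cells with wild-type E12. The cells had thus seen 3 stimuli before the antibody. The introduced E12 came from a virus, and an intact copy of the cells' own E2A gene remained beside it. The labels do not say whether replicates came from separate mice or cultures, so p-values measure the spread between these arrays, which may be technical.

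Crosslinking of the antigen receptor activates tyrosine kinases such as Syk and Btk, then phospholipase C, calcium release, the MAP kinases, NF-kB and NFAT. Calcium-loaded calmodulin binds the basic region of E proteins and blocks their contact with DNA. E proteins bind DNA at E-boxes and maintain much of the B cell programme. A calmodulin-resistant E12 lacks this brake, so the comparison asks what anti-IgM changed in cells whose introduced E12 calmodulin could not bind.

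Tcf3, the gene of E12, was checked first, at 11.27, 12.79 and 12.54 with anti-IgM, against 11.90, 12.31 and 12.93 untreated (-0.18 ± 0.35, adjusted p = 0.963). It was bright on all 6 arrays and the groups overlapped, and a second probe gave -0.16. Endogenous and viral Tcf3 could not be told apart here, and the array does not show which form a cell carried. B cell identity was checked on 5 measured markers, Cd79b, Ms4a1, Cd22, Cd37 and Blnk, and each was above the detection limit on all 6 arrays, whereas Cd79a had no named probe and the probe for Pax5 was below the limit. The summed intensity of the 5 was 14715 to 18097 on treated and 18401 to 20990 on untreated arrays, groups that do not overlap. Most of this sum was Cd79b, whose own groups overlapped. By gene, the median change of the 5 was -0.04, 1 was positive (Cd22, 0.26), and 0 lay above or below without overlap. Fewer cells of a type and less RNA per cell cannot be told apart in such samples. Of the other lineages, 3 of 10 T cell markers were measured (summed intensity 1467 to 2171 treated, 1539 to 2007 untreated), with 6 others, Cd3d, Cd3e, Cd3g, Cd4, Cd8a and Trat1, below the limit. Myeloid markers (8 of 13) summed to 548 to 845 treated and 590 to 744 untreated, and NK and cytotoxic markers (2 of 9) to 730 to 2629 treated and 691 to 1524 untreated. Dendritic (4 of 8), erythroid (2 of 7) and stromal and endothelial markers (2 of 9) summed to 352 to 471, 46.7 to 90.2 and 110 to 153 on treated and 302 to 542, 35.4 to 62.4 and 136 to 193 on untreated arrays. None of the 21 markers of other lineages passed, and the part of any marker in the results was not tested. Tyrobp was not well above background on any treated array, and Adgre1 on any mutant array. The markers with the smallest p in each lineage were otherwise Cd247 (0.14 ± 0.11), Cd8b1 (0.10 ± 0.27), Fcer1g (0.17 ± 0.18), Prf1 (0.20 ± 0.38), Nkg7 (0.11 ± 0.18), Zbtb46 (-0.23 ± 0.16), Xcr1 (0.19 ± 0.13), Hbb-bt (0.36 ± 0.24), Klf1 (-0.16 ± 0.11), Pecam1 (-0.29 ± 0.17) and Cxcl12 (0.14 ± 0.17). Blnk, the linker of the receptor to phospholipase C, was at -0.55 ± 0.24.

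Within 3 h of anti-IgM, mutant E12 cells had 23 genes past the threshold when all 12 arrays were fitted together. Of 10050 genes tested, 19 rose (0.189%) and 4 fell (0.0398%), 23 in all (0.229%), at a Benjamini-Hochberg adjusted p of 0.05 in limma, and 922 had an unadjusted p under 0.05. The genes that rose included the tRNA methyltransferase subunit Trmt61a, the receptor adaptor Pik3ap1, the tetraspanin Cd63, the scaffold Homer1, the caspase Casp4, the metallothionein Mt1 and the ribosome assembly factor Nop56. The sizes were modest: called rises lay between 1.54-fold (Tigit) and 2.35-fold (Fam167a). By size alone, 13 genes were higher by at least 1 log2 unit and 0 were lower by that much. The 5th and 95th percentiles over all genes were -0.31 and 0.34. Levels here are log2(intensity + 50), a scale on which the changes of dim genes are understated.

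The count of 23 depended on single arrays. Without untreated mutant replicate 2 it was 2, Trmt61a and Ephx1, and without treated mutant replicates 2 and 3 it was 47 and 4. Without untreated mutant replicate 1 it was 13. The wild-type arrays lent their spread to the fit, and leaving out untreated wild-type replicates 1 and 3 gave 57 and 15, and treated wild-type replicates 1, 2 and 3 gave 9, 7 and 6. With an offset of 16 it was 11 (11 higher, 0 lower), without the joint quantile step 49 (37 higher, 12 lower), and when the wild-type arrays were left out of the fit 7 (7 higher, 0 lower). With array weights estimated from the data it was 717, 400 higher and 317 lower, so the balance of directions also depended on the fit. Of the 12 arrays left out in turn, 7 gave 0 lower calls. The calls of 6 genes (Trmt61a, Ephx1, Fam167a, Pik3ap1, Mt1 and Casp4) were lost under at most 4 of 21 alternatives, and that of Trmt61a under 0. For the other 17 genes, between 7 and 14 of 20 or 21 alternatives ended the call.

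**Figure D1:**
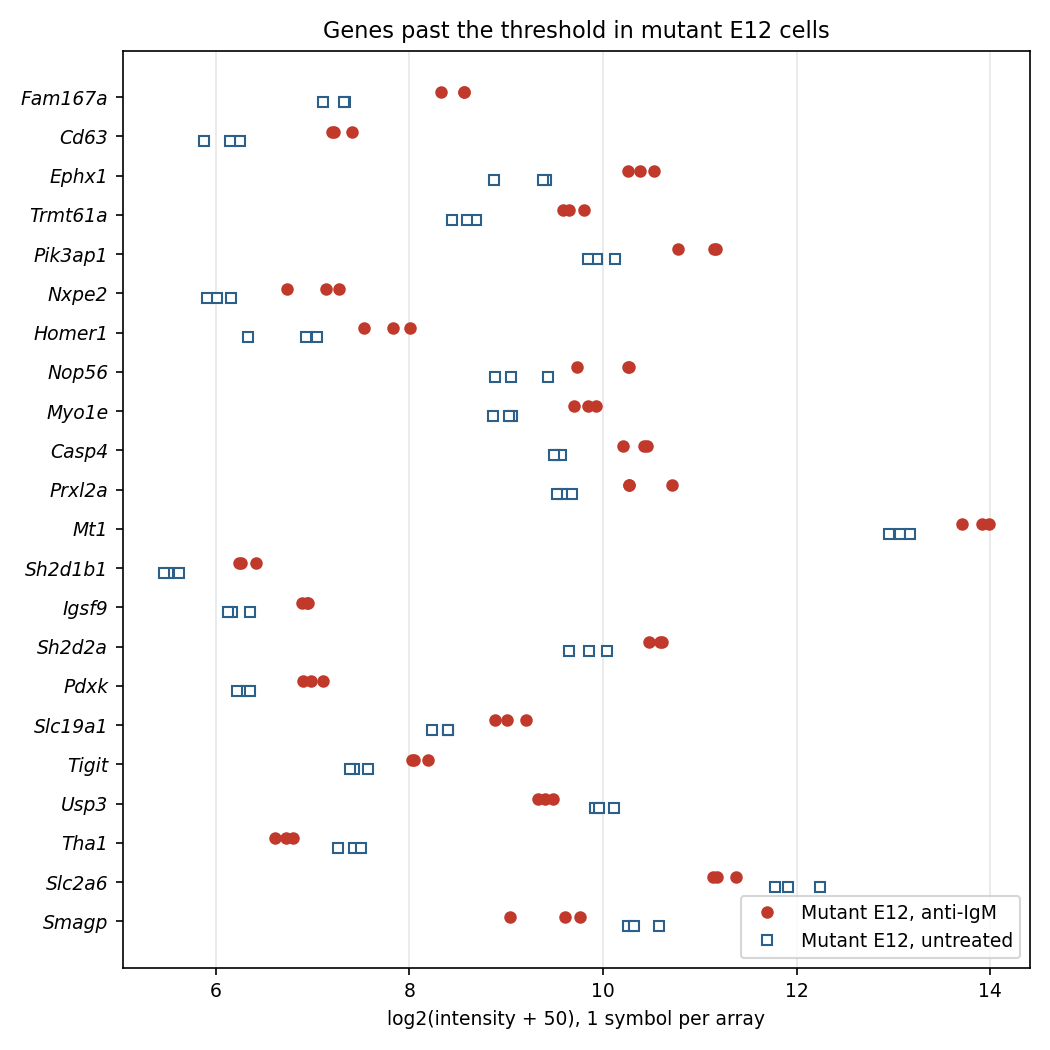
Level of each called gene with a gene symbol that is not clone-like, as log2(intensity + 50), on the 3 anti-IgM arrays (red circles) and the 3 untreated arrays (open blue squares) of mutant E12 cells, 1 symbol per array. For all 22 genes the circles and squares do not overlap, and the lowest 4 rows are the genes that fell. The genes were chosen with these same arrays, so this is a description, and 1215 of all 10050 genes (12.1%) did not overlap in either direction.

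Trmt61a, the catalytic subunit of the enzyme that methylates an adenosine in tRNA, gave the clearest rise. Its log2 level was 9.65, 9.59 and 9.81 with anti-IgM, against 8.68, 8.60 and 8.44 untreated. The 3 treated arrays lay close together and well above all 3 untreated arrays, a change of 1.11 ± 0.12 (SE; 3 arrays in each group) with an adjusted p of 0.00167. Next came Ephx1, an epoxide hydrolase that detoxifies reactive compounds, at 10.52, 10.38 and 10.26 with anti-IgM, against 9.41, 9.38 and 8.88 untreated. Its change was 1.17 ± 0.14 (adjusted p = 0.00433, or 0.0612 when the wild-type arrays were left out of the fit), and untreated replicate 3 was its lowest array. Fam167a stood at 8.32, 8.56 and 8.57 with anti-IgM, against 7.33, 7.10 and 7.33 untreated. That is 1.23 ± 0.15 (adjusted p = 0.00433), and without untreated mutant replicate 2 the adjusted p was 0.0546.

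Promoter sequences, from 250 bases before to 50 after the annotated start, are shown for 3 of these genes because E12 acts through E-boxes and because they had the smallest p among the called genes with a promoter entry. They are RefSeq sequences of build GRCm38.p6, with every E-box of the form CANNTG in capitals, and the arrays carry no information on binding there.
Trmt61a, chr12:111677855-111678154, plus strand: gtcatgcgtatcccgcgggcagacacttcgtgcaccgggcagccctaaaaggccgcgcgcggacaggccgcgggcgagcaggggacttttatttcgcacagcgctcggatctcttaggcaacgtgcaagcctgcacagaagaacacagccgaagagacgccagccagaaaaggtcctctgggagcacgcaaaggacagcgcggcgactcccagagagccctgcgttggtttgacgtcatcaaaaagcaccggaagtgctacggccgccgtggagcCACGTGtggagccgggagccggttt
Pik3ap1, chr19:41385053-41385352, minus strand: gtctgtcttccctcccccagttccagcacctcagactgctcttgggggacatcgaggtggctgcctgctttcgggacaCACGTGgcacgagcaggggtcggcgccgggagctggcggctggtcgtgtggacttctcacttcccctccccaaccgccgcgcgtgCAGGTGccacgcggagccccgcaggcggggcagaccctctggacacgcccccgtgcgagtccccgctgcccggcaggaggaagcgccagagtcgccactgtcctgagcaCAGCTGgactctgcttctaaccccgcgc
Ephx1, chr1:181017520-181017819, minus strand: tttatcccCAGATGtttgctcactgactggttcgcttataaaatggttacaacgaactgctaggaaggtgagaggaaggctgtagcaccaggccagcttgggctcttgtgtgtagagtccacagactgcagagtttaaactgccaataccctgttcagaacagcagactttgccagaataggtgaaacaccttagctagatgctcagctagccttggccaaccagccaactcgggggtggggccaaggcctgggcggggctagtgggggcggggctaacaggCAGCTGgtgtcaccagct
The box CACGTG, which MYC and its partners bind, is the 1 E-box in the Trmt61a window. The Pik3ap1 window holds 3 E-boxes, among them CACGTG and also CAGGTG, and the Ephx1 window holds 2. Of the 23 called genes 21 had a promoter entry. CANNTG, which reads the same on both strands, was in a promoter of 18 of the 21 genes (85.7%), against 67.8% of the 8197 tested genes with an entry and 72.3% of all 32851 promoters. CAGGTG on either strand, a box favoured by E proteins, was in 6 of 21 (28.6%), against 20.6% and 20.2%. CACGTG was in 5 of 21 (23.8%: Igsf9, Pdxk, Pik3ap1, Prxl2a and Trmt61a), against 12.1% of tested genes and 7.15% of all promoters. The narrower boxes are among the matches of CANNTG, and a match is a description of these letters.

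Among the components of receptor signalling, Pik3ap1 was the member that rose. It encodes BCAP, an adaptor that recruits PI3 kinase to the B cell receptor. Its level was 10.77, 11.14 and 11.17 with anti-IgM, against 9.94, 9.84 and 10.13 untreated, with no overlap and a change of 1.06 ± 0.15 (adjusted p = 0.0136), and a second probe gave 0.84 (adjusted p = 0.167). Of 35 tested signalling proteins 1 rose and 0 fell, and the median change was -0.02 beside -0.01 over all 10050 genes. For 5 of the 35 the treated arrays lay above all untreated ones (14.3%, against 6.59% of all genes), and for 2 below (5.71%, against 5.5%). Ptpn6, the inhibitory phosphatase SHP-1, was among the 5 at 11.69, 11.31 and 11.57 with anti-IgM, against 11.16, 10.66 and 10.45 untreated, a value of 0.77 ± 0.16 that did not pass (adjusted p = 0.0688), beside 0.64 for a second probe. Sh2d2a, a T cell adaptor with an SH2 domain, rose by 0.71 ± 0.13 (adjusted p = 0.0433), at 10.61, 10.59 and 10.47 with anti-IgM, against 10.05, 9.86 and 9.64 untreated. Sh2d1b1, an adaptor of SLAM family receptors, stood at 6.24, 6.26 and 6.41 with anti-IgM, against 5.51, 5.62 and 5.46 untreated. It was above the detection limit on 3 of 3 treated and 0 of 3 untreated arrays, so its rise is given as at least 1.20-fold (adjusted p = 0.0288).

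The receptor chains and coreceptors had 0 of 11 tested members past the threshold and a median of 0.06. As 0.229% of all genes were called, 0 calls in a list this small say little, here and in the lists below. The B cell markers of these cells summed to less on treated arrays, a sum that was mostly Cd79b. Cd72, an inhibitory coreceptor of B cells, was at 10.91, 10.35 and 10.96 with anti-IgM, against 10.14, 9.40 and 9.67 untreated. All treated arrays lay above all untreated ones, and it did not pass (1.00 ± 0.27, adjusted p = 0.163). The adjusted p was 0.0353 without untreated wild-type replicate 1, but 0.102 to 0.558 with any other single array left out. Without any wild-type array it was 0.283. Cd79b, a signalling chain of the receptor, was at 13.80, 13.43 and 13.29 with anti-IgM, against 13.97, 13.82 and 13.67 untreated. The groups overlapped, and the value was -0.31 ± 0.14 (adjusted p = 0.536).

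Homer1, a scaffold protein that binds inositol trisphosphate receptors, rose among the calcium genes. It stood at 7.53, 7.83 and 8.00 with anti-IgM, against 6.34, 6.93 and 7.05 untreated, with untreated replicate 1 lowest, a change of 1.01 ± 0.17 (adjusted p = 0.0287), and a second probe gave 0.51. Of 27 tested calcium, calmodulin and NFAT genes it was the 1 that rose, 0 fell, and the median was -0.01. Ppp3cc, a catalytic subunit of calcineurin, was at 9.65, 9.96 and 9.66 with anti-IgM, against 10.09, 10.48 and 10.50 untreated. Every treated array was below every untreated one, and the value was -0.60 ± 0.16 (adjusted p = 0.163). Dgka, a kinase that removes the second messenger diacylglycerol, was at 9.06, 9.63 and 9.17 with anti-IgM, against 9.76, 9.97 and 10.38 untreated (-0.76 ± 0.17, adjusted p = 0.0935). Dgka was named because it passed in a fit with the replicate number as a block and did not overlap. The lack of overlap is therefore no support for it, and other Dgka probes gave -0.72 and -0.07.

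The called genes also included several that encode membrane proteins. Cd63, a tetraspanin of late endosomes and lysosomes, was at 7.40, 7.20 and 7.22 with anti-IgM, against 6.25, 6.14 and 5.88 untreated, a rise of 1.19 ± 0.19 (adjusted p = 0.0253). It was above the detection limit on 3 treated and 2 untreated arrays, and other Cd63 probes gave 0.45 and 0.68, neither past the threshold. It was the 1 called member of 14 tetraspanins, whose median was -0.01. Tigit, an inhibitory receptor best known from T and NK cells, rose by 0.63 ± 0.11 (adjusted p = 0.0322). Its arrays were at 8.03, 8.19 and 8.05 with anti-IgM, against 7.43, 7.57 and 7.39 untreated, which do not overlap. Igsf9, an adhesion protein of the immunoglobulin superfamily, had 6.95, 6.95 and 6.89 with anti-IgM, against 6.17, 6.13 and 6.36 untreated, a rise of 0.71 ± 0.11 (adjusted p = 0.0253), while another probe gave 0.07. Nxpe2 stood at 7.14, 6.73 and 7.27 with anti-IgM, against 6.01, 5.91 and 6.15 untreated. It was above the detection limit on 3 treated and 1 untreated array, and rose by 1.02 ± 0.16 (adjusted p = 0.0253), while a dimmer probe gave 0.36. Smagp, a small transmembrane adhesion glycoprotein, fell: it was at 9.77, 9.61 and 9.04 with anti-IgM, against 10.26, 10.58 and 10.32 untreated, a change of -0.91 ± 0.16 (adjusted p = 0.0351), beside -0.77 for a second probe.

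Among the called genes were also enzymes and transporters. Slc19a1, the reduced folate carrier, rose by 0.69 ± 0.12 (adjusted p = 0.0287) at 9.20, 8.88 and 9.01 with anti-IgM, against 8.40, 8.40 and 8.23 untreated, while a dimmer probe gave -0.09. Pdxk, the kinase that activates vitamin B6, had 7.10, 6.91 and 6.99 with anti-IgM, against 6.31, 6.36 and 6.22 untreated, a rise of 0.70 ± 0.12 (adjusted p = 0.0287). Both groups were tight for each gene. Slc2a6, a member of the glucose transporter family, was the called member of 17 glycolysis and glucose transport genes, and it fell. Its level was 11.37, 11.18 and 11.14 with anti-IgM, against 12.24, 11.91 and 11.77 untreated, a change of -0.75 ± 0.13 (adjusted p = 0.0304), in a list whose median was 0.02. Tha1, a threonine aldolase, fell by 0.68 log2 units (adjusted p = 0.0417), with 6.73, 6.61 and 6.80 with anti-IgM, against 7.42, 7.50 and 7.26 untreated. The treated arrays of Tha1 span a narrow range below all untreated ones.

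The other called genes have no shared role here. Mt1, a metallothionein that binds zinc and copper, was bright on every array, with 13.92, 13.98 and 13.71 with anti-IgM, against 13.07, 13.17 and 12.95 untreated (0.81 ± 0.12, adjusted p = 0.0141). Casp4, the sensor of cytosolic lipopolysaccharide, was at 10.42, 10.21 and 10.46 with anti-IgM, against 9.51, 9.57 and 9.49 untreated, a rise of 0.84 ± 0.13 (adjusted p = 0.0165). A second Casp4 probe gave 0.77 (adjusted p = 0.0653) and a dimmer one 0.08. Of 21 survival and death genes Casp4 was the 1 that rose and 0 fell, and the survival gene Bcl2l1 was at -0.55 ± 0.19 (adjusted p = 0.318). Myo1e, a class I myosin, had 9.70, 9.85 and 9.93 with anti-IgM, against 9.06, 8.86 and 9.03 untreated, a rise of 0.84 ± 0.14 (adjusted p = 0.0287), with dimmer probes at -0.13 and 0.20. Prxl2a, a peroxiredoxin-like protein, rose by 0.82 ± 0.14 (adjusted p = 0.0287), at 10.26, 10.27 and 10.71 with anti-IgM, against 9.58, 9.53 and 9.68 untreated, with 0.65 for a second probe. Usp3, which removes ubiquitin from histones, fell by 0.59 log2 units (adjusted p = 0.0499), with 9.33, 9.48 and 9.40 with anti-IgM, against 9.92, 9.96 and 10.11 untreated, and a second probe gave -0.58. The 1 called gene with a clone-like symbol, A430093F15Rik, was above the detection limit on all treated and 0 untreated arrays and was at least 1.79-fold higher.

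The 4 largest sizes belonged to genes that did not pass in the fit of all arrays. Ccl4, a chemokine that activated B cells secrete, was at 10.88, 10.81 and 10.76 with anti-IgM, against 7.85, 8.75 and 8.15 untreated. The groups were far apart, and the value of 2.57 ± 0.53 had an adjusted p of 0.0591, beside 1.77 for a second probe (adjusted p = 0.0592). The SE is shared with the wild-type arrays, whose untreated replicates were at 10.61, 7.88 and 7.94. Without untreated wild-type replicate 1 the adjusted p for Ccl4 was 3.63e-04, and without any wild-type array 0.00343. Without treated mutant replicate 3 it was 0.300, and with offsets of 16 and 100 it was 0.102 and 0.115. The related chemokine Ccl3 was at 8.91, 8.60 and 8.92 with anti-IgM, against 7.22, 7.58 and 7.23 untreated (1.47 ± 0.30, adjusted p = 0.0584). Its untreated wild-type replicates were at 8.90, 7.40 and 7.71, and its adjusted p was 0.00197 without replicate 1 of these and 0.0193 without any wild-type array. Without treated mutant replicate 3 the adjusted p for Ccl3 was 0.300, and with offsets of 16 and 100 it was 0.0941 and 0.115. Hivep3, a zinc finger DNA-binding protein, had 8.75, 9.84 and 10.18 with anti-IgM, against 7.77, 7.48 and 8.50 untreated (1.68 ± 0.33, adjusted p = 0.0570), while dimmer probes gave 0.21 and 0.08. Its adjusted p was 0.0311 without untreated wild-type replicate 1 and 0.278 without any wild-type array. Egr3, an early growth response factor, stood at 9.18, 9.56 and 10.31 with anti-IgM, against 8.12, 7.81 and 9.15 untreated (1.33 ± 0.34, adjusted p = 0.155), with replicate 3 highest in both groups and 0.30 for a dimmer probe. Cd72, described above, was the other of the 5 uncalled genes with at least 1 log2 unit. Just outside the threshold lay Ndufaf4 (0.71, adjusted p = 0.0509), Fbxl20 (-0.62, adjusted p = 0.0531), Heatr1 (0.81 ± 0.16, adjusted p = 0.0548) and Nod1 (-0.67 ± 0.13, adjusted p = 0.0555), and just inside it Usp3 and Sh2d2a.

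**Figure D2:**
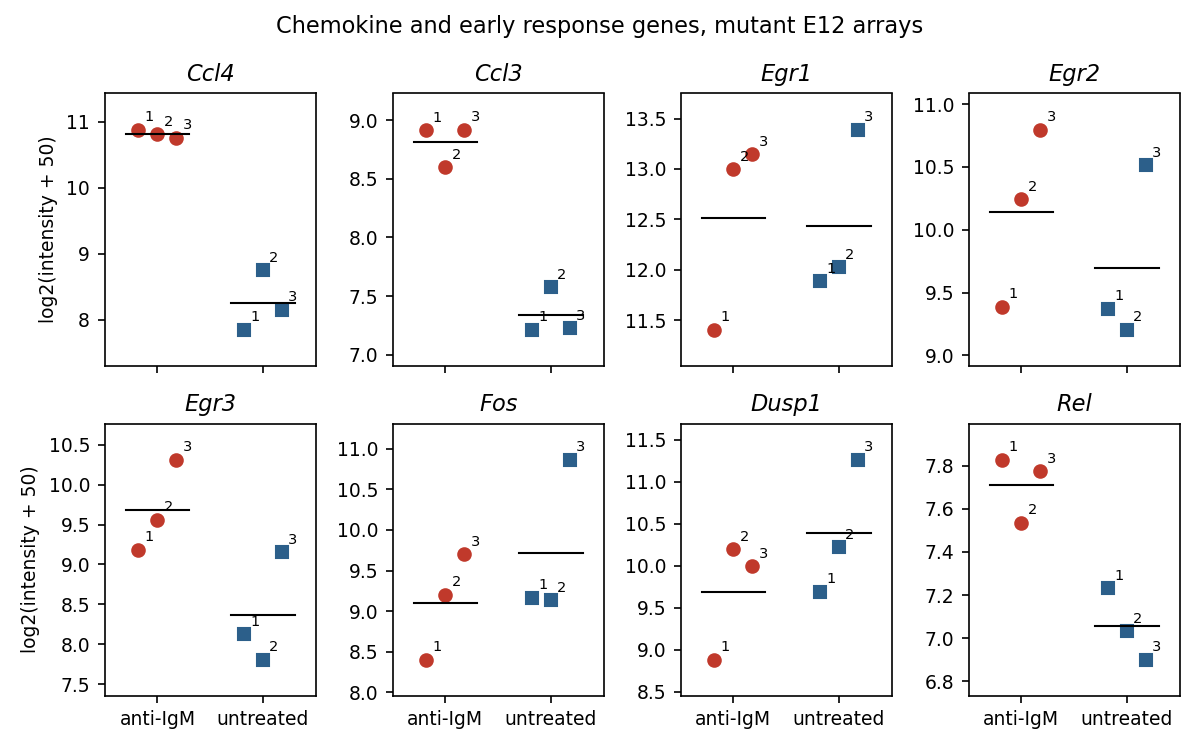
Levels, as log2(intensity + 50), of 2 chemokine genes and 6 early response genes on each mutant E12 array, with anti-IgM (red circles) left of untreated (blue squares), replicate numbers beside the symbols and means as lines; each panel has its own vertical range. Ccl4, Ccl3, Egr3 and Rel do not overlap between groups, whereas Egr1, Egr2, Fos and Dusp1 do.

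Immediate early factors are the genes that respond first to receptor signals. Of 20 tested members 0 rose and 0 fell (against 0.189% and 0.0398% of all genes), and the median was 0.09. On all arrays 4 lay above (20%, against 6.59% of all genes) and 2 below (10%, against 5.5%). Egr1 was at 11.41, 13.00 and 13.15 with anti-IgM, against 11.89, 12.02 and 13.39 untreated. Treated replicate 1 was the lowest of all 6 arrays and untreated replicate 3 the highest (0.08 ± 0.41, adjusted p = 0.984). Fos showed the same extremes, with 8.40, 9.20 and 9.70 with anti-IgM, against 9.16, 9.13 and 10.87 untreated (-0.62 ± 0.41, adjusted p = 0.766). So did the MAP kinase phosphatase Dusp1, with 8.88, 10.20 and 9.99 with anti-IgM, against 9.69, 10.22 and 11.26 untreated (-0.70 ± 0.40, adjusted p = 0.683). Egr2 had 9.39, 10.24 and 10.80 with anti-IgM, against 9.37, 9.21 and 10.51 untreated (0.45 ± 0.33, adjusted p = 0.798), again with replicate 3 highest in each group. Atf3, a stress-induced factor, did not overlap, at 7.42, 6.85 and 7.22 with anti-IgM, against 6.64, 6.28 and 6.32 untreated (0.75 ± 0.17, adjusted p = 0.0943). Nab2, a corepressor of EGR factors, was at 0.50 ± 0.14 and Ier2 at -0.51 ± 0.13 (adjusted p = 0.193 and 0.163).

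The first principal component of the 6 mutant arrays, 50.5% of the variance, ran from treated replicate 1 (-22.9) to untreated replicate 3 (22.5). Between these lay untreated replicates 1 (-14.1) and 2 (-5.8) and treated replicates 3 (8.5) and 2 (11.8), so that this axis did not separate the groups. The groups parted on the second component, 24.3% of the variance, where treated arrays were at 8.7, 3.4 and 17.3 and untreated arrays at -7.1, -14.6 and -7.8. Between arrays of the same mutant group, correlations over genes (which are not replicates) were 0.978 to 0.991. The median SD of a gene within a group was 0.18 log2 units in both.

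**Figure D3:**
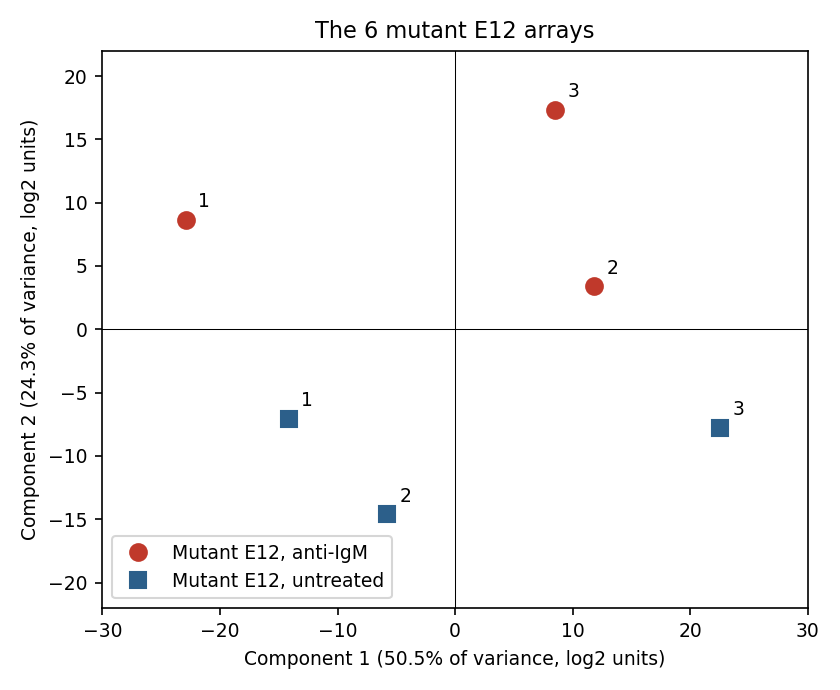
The 6 mutant E12 arrays on the first and second principal components of 10050 genes centred by gene, with anti-IgM arrays as red circles, untreated arrays as blue squares and replicate numbers beside them. The groups part along component 2 and not along component 1, whose ends are treated replicate 1 and untreated replicate 3.

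Feedback and NF-kB genes had 0 called members, which says little in short lists where 0.229% of all genes were called. Of 9 MAP kinase feedback genes 3 had all treated arrays above all untreated ones and 0 below (against 6.59% higher and 5.5% lower over all genes), and the median was 0.09. Spred1, an inhibitor of the Ras pathway, was one of them at 6.74, 6.88 and 6.85 with anti-IgM, against 5.96, 6.37 and 6.50 untreated (0.55 ± 0.17, adjusted p = 0.262). Of 17 NF-kB genes 3 (17.6%) lay above and 2 (11.8%) below without overlap, against 6.59% and 5.5% of all genes, with a median of 0.07. Rel, an NF-kB subunit that receptor signals induce in B cells, was at 7.83, 7.54 and 7.77 with anti-IgM, against 7.23, 7.03 and 6.90 untreated (0.66 ± 0.13, adjusted p = 0.0570). Its groups did not overlap, as for 12.1% of all genes in either direction, and it did not pass.

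Growth gene lists had positive medians, with few members past the threshold. Ribosome biogenesis factors, which make and process ribosomal RNA, had a median of 0.46 beside -0.01 over all genes. Of 47 tested members 44 had positive values, 22 had all treated arrays above all untreated ones (46.8%, against 6.59% of all genes) and 0 had all below (against 5.5%). Nop56, a core protein of small nucleolar ribonucleoproteins, was the member that rose, and 0 fell. It was at 10.27, 9.73 and 10.26 with anti-IgM, against 9.43, 8.88 and 9.05 untreated, with untreated replicate 1 highest in its group (0.97 ± 0.18, adjusted p = 0.0376). Heatr1, needed for transcription of ribosomal RNA genes, stood at 11.43, 11.27 and 11.63 with anti-IgM, against 10.77, 10.46 and 10.68 untreated and was named above as just outside the threshold. Grwd1 (0.77 ± 0.17, adjusted p = 0.0927) and Gar1 (0.76 ± 0.18, adjusted p = 0.120) did not pass.

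Trmt61a was the 1 called member of 23 tRNA modification enzymes, 6 of which (26.1%, against 6.59% of all genes) lay above without overlap and 0 (against 5.5%) below, with a median of 0.18. Of 19 polyamine and nucleotide synthesis enzymes 0 passed, 4 (21.1%, against 6.59% of all genes) lay above and 0 (against 5.5%) below, and the median was 0.27. Srm, which makes the polyamine spermidine, had a value that did not pass (0.55 ± 0.14, adjusted p = 0.150), and Shmt1, a folate enzyme, was at 8.27, 8.12 and 8.76 with anti-IgM, against 7.64, 7.40 and 7.71 untreated (0.80 ± 0.16, adjusted p = 0.0570). Cholesterol synthesis genes had 0 of 17 called, 6 above (35.3%, against 6.59% of all genes) and 0 below (against 5.5%), with a median of 0.22. Hsd17b7, a sterol reductase of this pathway, had 0.68 ± 0.15 (adjusted p = 0.0941).

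Myc itself, the usual driver of such growth genes, did not pass. It was at 6.60, 7.05 and 7.23 with anti-IgM, against 6.90, 6.49 and 7.26 untreated (0.08 ± 0.22, adjusted p = 0.978), and the groups overlapped. Of 11 genes of the MYC, MAX and MXD network 0 passed, and the median was -0.10. Mxd4, a MAX partner that opposes MYC, was at 10.14, 10.96 and 10.51 with anti-IgM, against 11.25, 11.23 and 11.51 untreated (-0.79 ± 0.18, adjusted p = 0.0965), below on all treated arrays, and other Mxd4 probes gave -0.67 and -0.72.

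**Figure D4:**
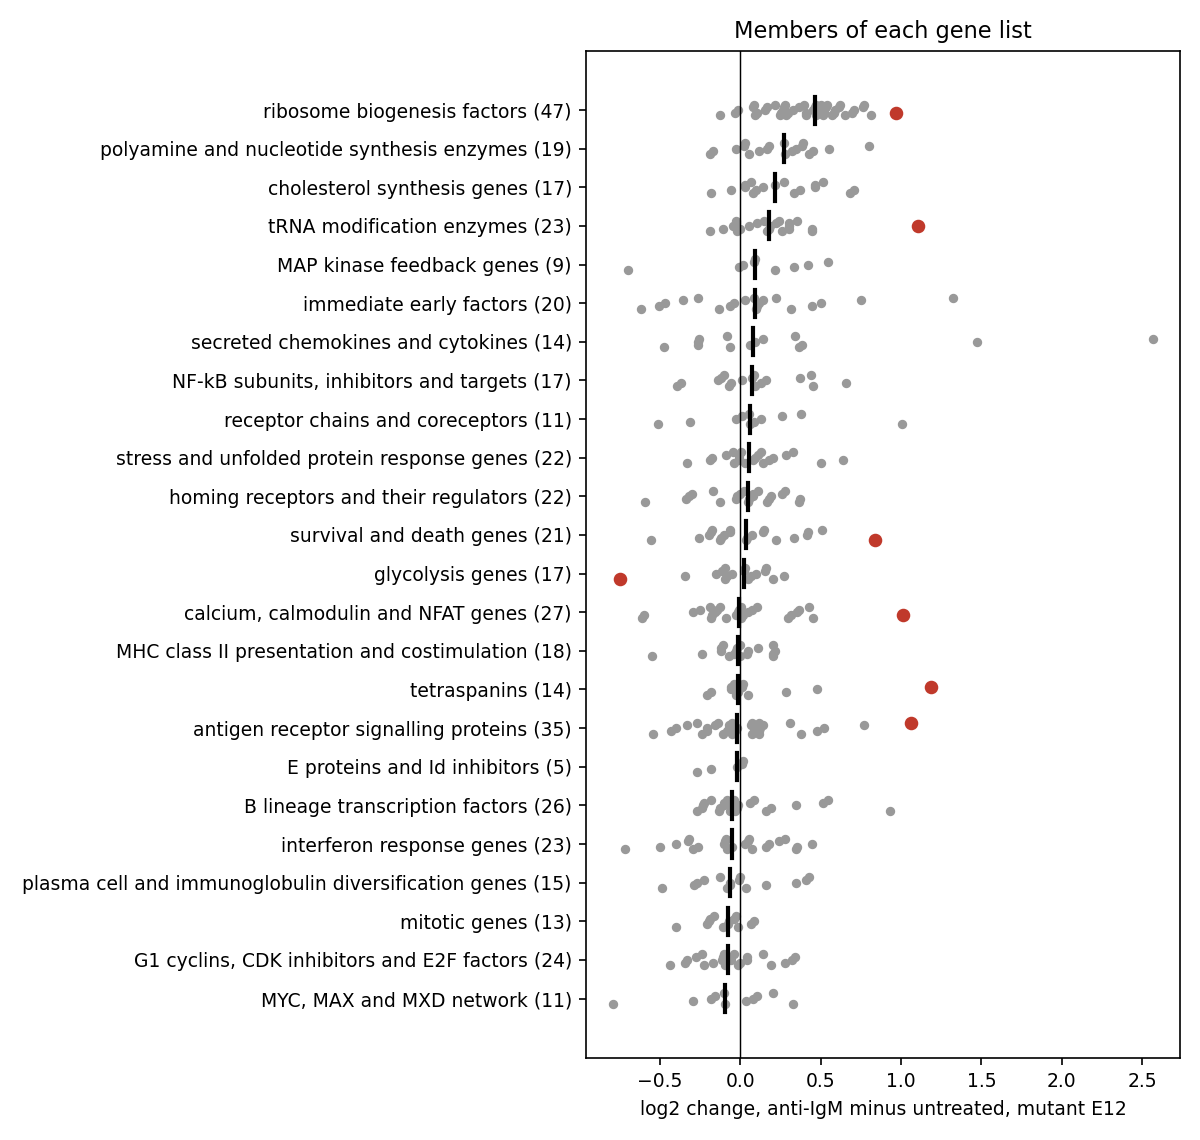
Log2 change of each tested member of the 24 gene lists in mutant E12 cells, anti-IgM minus untreated, with called members in red, others in grey and list medians as black bars; the number of tested members is in parentheses. Ribosome biogenesis factors have the highest median of the 24 lists, 0.46, and the MYC, MAX and MXD network the lowest, -0.10.

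Of 26 tested B lineage transcription factors 0 passed (against 0.229% of all genes), and the median was -0.05. For 3 (11.5%, against 6.59% of all genes) all treated arrays lay above all untreated ones, and for 1 (3.85%, against 5.5%) below. Bhlhe40, an activation-induced repressor, was at 9.40, 9.59 and 10.08 with anti-IgM, against 8.80, 8.33 and 9.15 untreated (0.93 ± 0.21, adjusted p = 0.0943). Ikzf3, the Ikaros family factor Aiolos, was at 8.87, 8.80 and 8.68 with anti-IgM, against 8.36, 8.28 and 8.06 untreated (0.55 ± 0.14, adjusted p = 0.137). Neither gene overlapped between groups, but other Ikzf3 probes gave 0.12 and 0.26, neither past the threshold. Irf4, which drives plasma cell formation, was at 10.37, 11.17 and 10.67 with anti-IgM, against 10.54, 10.99 and 11.37 untreated (-0.23 ± 0.29, adjusted p = 0.928), again with treated replicate 1 lowest and untreated replicate 3 highest. Of 5 tested E protein and Id genes 0 passed, and the inhibitor Id3 was at -0.27 ± 0.22 (adjusted p = 0.827).

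The other lists described next had 0 called members, where 0.229% of all genes were called. Interferon response genes had a median of -0.05, with 4 of 23 below without overlap (17.4%, against 5.5%) and 0 above, and Gbp3, an interferon-induced GTPase, at -0.50 ± 0.15 (adjusted p = 0.199). Gbp2, of the same family, had -0.72 ± 0.25 (adjusted p = 0.330). Of 22 stress and unfolded protein response genes 2 (9.09%, against 6.59% of all genes) lay above and 0 (against 5.5%) below, with Ddit3 at 0.64 ± 0.18 and the mitochondrial chaperone Hspa9 at 0.50 ± 0.15 (adjusted p = 0.187 and 0.212). The 24 genes of G1 cyclins, CDK inhibitors and E2F factors had a median of -0.08, with E2f2 at -0.44 ± 0.15 and the inhibitor Cdkn2c at -0.35 ± 0.14 (adjusted p = 0.282 and 0.411). Mitotic genes had a median of -0.08 over 13 members, with the spindle genes Nusap1 at -0.40 ± 0.19 and Tpx2 at -0.21 ± 0.14 (adjusted p = 0.547 and 0.751). Presentation and costimulation genes had a median of -0.01 over 18, and Cd86, a costimulatory ligand, was at -0.55 ± 0.22 (adjusted p = 0.415). Plasma cell and diversification genes had a median of -0.06 over 15, with the elongation factor Ell2 at -0.49 ± 0.14 and the uracil glycosylase Ung at 0.35 ± 0.12 (adjusted p = 0.199 and 0.293). Homing receptors and their regulators had a median of 0.05 over 22, with S1pr4 at -0.59 ± 0.26 and Klf2 at -0.30 ± 0.14 (adjusted p = 0.493 and 0.543). Secreted chemokines and cytokines had a median of 0.08 over 14, led by Ccl4 and Ccl3.

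Several genes were lower on every treated array than on every untreated one without passing, and all are given as values. They were named because they passed with the replicate number as a block and did not overlap, so the lack of overlap is no support for them. Over all 10050 genes 553 (5.5%) lay lower and 662 (6.59%) higher without overlap. Abi3, an Abl interactor of the actin machinery, was at 10.12, 10.57 and 9.85 with anti-IgM, against 11.03, 11.14 and 10.99 untreated (-0.87 ± 0.18, adjusted p = 0.0591). Tbxa2r, the thromboxane receptor, was at 7.13, 7.29 and 6.53 with anti-IgM, against 7.86, 8.20 and 7.64 untreated (-0.91 ± 0.19, adjusted p = 0.0678). Ypel3 was at 11.50, 12.47 and 11.85 with anti-IgM, against 12.52, 12.87 and 13.00 untreated (-0.86 ± 0.21, adjusted p = 0.128). The lower values closest to the threshold in this set were Nod1, a sensor of bacterial peptidoglycan, and Prodh, a proline dehydrogenase (-0.72 ± 0.14, adjusted p = 0.0577). Gadd45b (-0.75 ± 0.18), Nmral1 (-0.67 ± 0.16), Stard5 (-0.66 ± 0.22), the atypical protein kinase C Prkcz (-0.66 ± 0.19) and N4bp2l1 (-0.64 ± 0.14) had adjusted p of 0.125, 0.124, 0.286, 0.198 and 0.0695. On the higher side were Abi2, a component of the actin-regulating WAVE complex, at 8.11, 8.42 and 8.44 with anti-IgM, against 7.10, 7.22 and 7.70 untreated (0.98 ± 0.21, adjusted p = 0.0678), and Cd180, a Toll-like receptor homologue of B cells, at 9.69, 9.65 and 9.69 with anti-IgM, against 8.64, 8.83 and 8.64 untreated (0.98 ± 0.22, adjusted p = 0.0934). Other probes gave 0.39 and 0.06 for Cd180 and 0.98 for Abi2. For the lower genes they gave -0.20 for Abi3, -0.57 for Tbxa2r, -0.27 for Ypel3, -0.21 for Prodh and -0.31 for Gadd45b. They gave 0.13 for Nmral1, -0.69 for Stard5, -0.31 and -0.21 for Prkcz and -0.44 for N4bp2l1.

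The same 23 genes were compared with their response in wild-type E12 cells, which come from other arrays but share the estimate of the spread. Tcf3 itself had means of 12.20 treated and 12.38 untreated with mutant E12, against 10.66 and 10.71 with wild-type E12. The deposited values had been normalized separately for each form, so whether this gap is one of E12 amount cannot be told. Its part in the differences between the forms was not tested. In wild-type cells 3148 of all 10050 genes passed (31.3%), 1522 higher (15.1%) and 1626 lower (16.2%). There 20 of the 23 passed and 21 had the same sign, 15 of these with a larger value than in mutant cells. The difference of the responses, the interaction term of the fit, passed for 11 of the 23 genes, 7 negative and 4 positive, where over all 10050 genes 350 (3.48%) were positive and 348 (3.46%) negative, 698 in all (6.95%). As the mutant response chose the 23 genes, their share is a description. The total of 698 was 371, 426 and 448 without treated wild-type replicates 1, 2 and 3, 425 without untreated mutant replicate 2, 463 with an offset of 16 and 385 with no joint quantile step.

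Smaller responses with the mutant were those of Trmt61a (1.11 ± 0.12 with mutant and 2.77 ± 0.12 with wild-type E12; difference -1.66 ± 0.17, adjusted p = 1.30e-04) and Cd63 (1.19 ± 0.19 and 2.83 ± 0.19; difference -1.65 ± 0.27, adjusted p = 0.00369). Nop56 had 0.97 ± 0.18 with mutant and 2.49 ± 0.18 with wild-type E12 (difference -1.53 ± 0.25, adjusted p = 0.00361), and the folate carrier Slc19a1 0.69 ± 0.12 and 2.22 ± 0.12 (difference -1.53 ± 0.17, adjusted p = 2.91e-04). Sh2d2a, Pdxk and Myo1e differed by -0.96 ± 0.19, -0.95 ± 0.17 and -0.75 ± 0.20 (adjusted p = 0.00814, 0.00564 and 0.0401). The untreated mean of Cd63 was 6.09 with mutant E12, close to the detection limit of 6.04, and 8.70 with wild-type E12. That of Pdxk was 6.29 and 7.28. As the scale understates changes of dim genes, these mutant responses are understated more, and the part of this in the differences was not tested. Slc2a6, which fell in both forms, fell less with the mutant (difference 0.76 ± 0.19, adjusted p = 0.0245).

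By contrast, 3 genes that rose with the mutant had a more positive response there. Ephx1 was at 1.17 ± 0.14 with mutant and 0.27 ± 0.14 with wild-type E12 (difference 0.90 ± 0.20, adjusted p = 0.0161). Igsf9 was at 0.71 ± 0.11 and -0.15 ± 0.11 (difference 0.86 ± 0.16, adjusted p = 0.00718). Nxpe2 was at 1.02 ± 0.16 with mutant and -0.64 ± 0.16 with wild-type E12, opposite in sign (difference 1.66 ± 0.23, adjusted p = 0.00126). The untreated means of Ephx1, Igsf9 and Nxpe2 were 9.22, 6.22 and 6.03 with mutant E12, against 11.33, 7.38 and 8.63 with wild-type E12. All 3 thus began lower with the mutant, and the part of this in the differences was not tested. Among uncalled genes the same direction of difference was found for Ptpn6, at 0.77 ± 0.16 with mutant and -0.46 ± 0.16 with wild-type E12 (difference 1.23 ± 0.23, adjusted p = 0.00718), and for Ikzf3, at 0.55 ± 0.14 and -0.32 ± 0.14 (difference 0.87 ± 0.19, adjusted p = 0.0153). In mutant cells other Ikzf3 probes gave 0.12 and 0.26, and a second Ptpn6 probe 0.64.

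For other called genes the difference between the forms did not pass. Pik3ap1 was at 1.06 ± 0.15 with mutant and 1.06 ± 0.15 with wild-type E12, a difference of 0.0037 ± 0.21 (adjusted p = 0.994). The corresponding differences were -0.03 ± 0.17 for Mt1, 0.08 ± 0.20 for Prxl2a, 0.18 ± 0.22 for Fam167a and -0.07 ± 0.18 for Tha1. Homer1, Casp4, Usp3, Tigit and Smagp differed by -0.38 ± 0.25, -0.44 ± 0.18, 0.44 ± 0.16, 0.48 ± 0.16 and 0.66 ± 0.23, none past the threshold. A p above the threshold does not show that the responses were equal, and the standard errors beside the differences give their precision. Egr3 (1.33 ± 0.34 and 1.19 ± 0.34; difference 0.14 ± 0.49) and Cd72 (1.00 ± 0.27 and 1.02 ± 0.27; difference -0.02 ± 0.38) did not pass in mutant cells, nor did their differences.

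**Figure D5:**
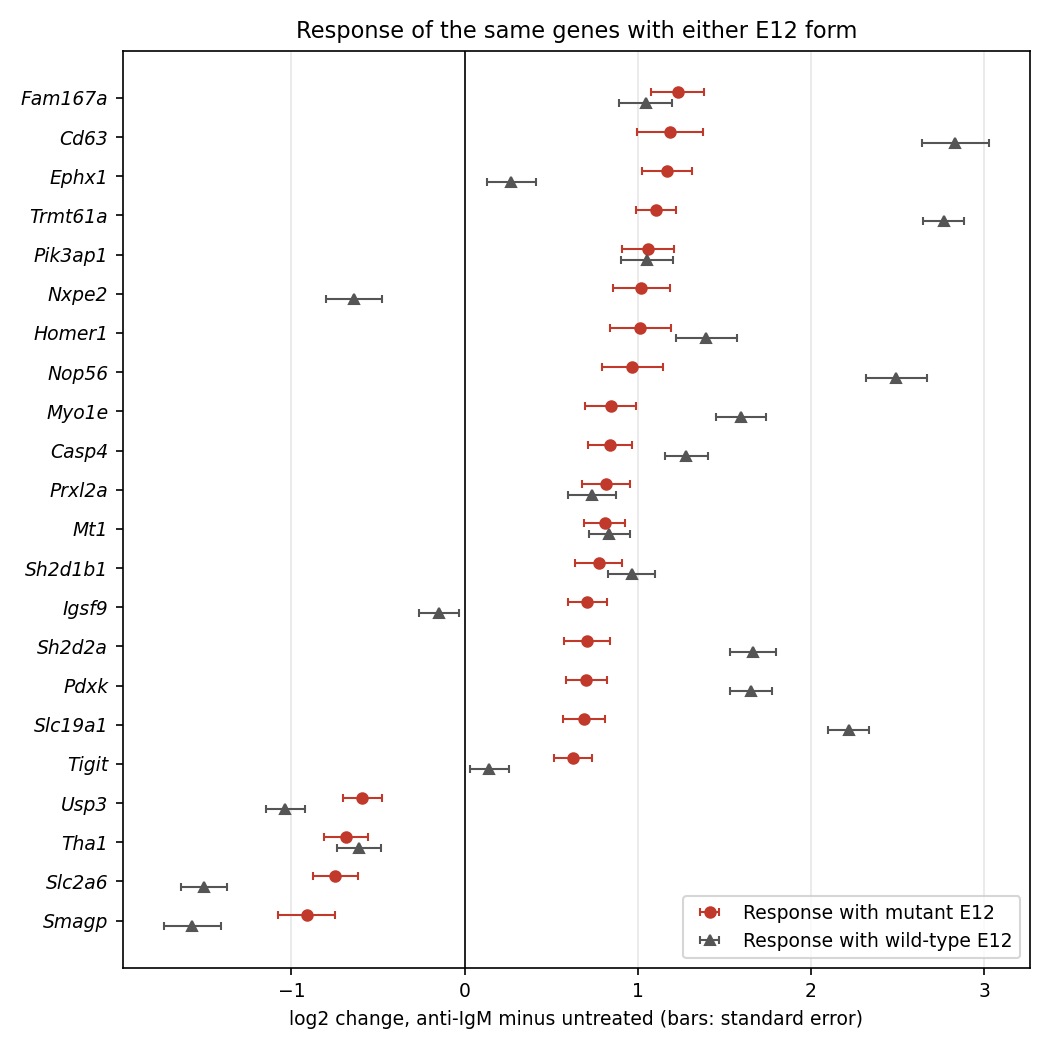
Log2 change with anti-IgM of the 22 called genes in mutant E12 cells (red circles) and in wild-type E12 cells (grey triangles), with standard errors of the fit as bars, ordered by the mutant response. Trmt61a, Cd63, Nop56 and Slc19a1 lie far to the right in wild-type cells, while Ephx1, Igsf9 and Nxpe2 lie to the right in mutant cells.

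Beyond the called genes, the 5 largest negative differences past the threshold over all 10050 genes were at genes whose mutant response did not pass. Plau, the urokinase gene, was in mutant cells at 6.28, 6.38 and 6.35 with anti-IgM, against 6.08, 5.96 and 5.88 untreated. Its change was 0.36 ± 0.15 with mutant and 2.83 ± 0.15 with wild-type E12. Csf1 (-0.06 ± 0.19 with mutant, 2.04 ± 0.19 with wild-type E12), Rgcc (0.15 ± 0.30 and 2.50 ± 0.30), Srm (0.55 ± 0.14 and 2.65 ± 0.14) and Rgs1 (0.37 ± 0.28 and 2.26 ± 0.28) were the others. The 5 largest positive ones were Snx29 (-0.34 ± 0.33 with mutant, -2.75 ± 0.33 with wild-type E12), Arhgef18 (-0.38 ± 0.20 and -2.56 ± 0.20), Ets1 (-0.23 ± 0.21 and -2.25 ± 0.21), Lrrk2 (-0.26 ± 0.13 and -2.27 ± 0.13) and Ccr6 (0.28 ± 0.21 and -1.71 ± 0.21). Other probes for Snx29, Ets1 and Lrrk2 are dimmer, and in mutant cells gave -0.22 and -0.29, -0.20 and -0.14, and -0.29 to -0.03. Ccr6, the receptor for the chemokine CCL20, was at 10.02, 9.92 and 10.08 with anti-IgM, against 9.49, 9.94 and 9.75 untreated in mutant cells, overlapping between groups.

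Over all 10050 genes the difference was positive for 3.48% and negative for 3.46%. By list, ribosome biogenesis factors had medians of 0.46 with mutant and 1.33 with wild-type E12, and the difference was negative for 28 of 47 members and positive for 0. Antigen receptor signalling proteins had medians of -0.02 and -0.39, with 6 of 35 differences positive and 0 negative, and receptor chains and coreceptors 0.06 and -0.51, with 5 of 11 positive and 0 negative. B lineage transcription factors had medians of -0.05 and -0.29, with 8 of 26 positive and 1 negative. Cholesterol synthesis genes had medians of 0.22 and 0.23, with 0 of 17 differences past the threshold in either direction. Over all genes the medians were -0.01 and -0.02.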

How the data were processed

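RNA of sorted splenic B cells was measured on Illumina bead arrays. The deposited values are intensities that the authors had background-subtracted and normalized, as the values show, separately for each E12 form. The array medians of the deposited values, before any log, were 6.40 intensity units for mutant and 6.93 to 6.94 for wild type. Which software they used is not given in the sources used here. One non-normalized table with 12 columns that match no sample label was not used.

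The 12 arrays were quantile normalized together and taken as log2(intensity + 50). Of 45281 probes, 34885 had 1 gene symbol, 18 several and 10378 none. A probe was kept if it was above a detection limit (p of 0.01, from the spread of values below 0; 15.6 to 15.7 intensity units on mutant arrays) on at least 3 arrays, and the brightest probe stood for a gene, which left 10050 genes. The 4 groups were fitted in limma 3.58.1 (R 4.3.3) with Benjamini-Hochberg adjustment over all genes, and the calculation was tested on simulated data. Errors after ± are standard errors of this fit, with 3 arrays per group.

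Named genes were those past the threshold, the 15 largest rises and falls past it with a replicate block whose groups do not overlap, up to 4 members of each list past either threshold or the 2 with the smallest p, the 5 largest differences of responses in each direction, and 12 chosen by name. Genes named only by the block are given as values. Genes just outside the threshold are named as such. The members, gene lists and names were chosen with earlier results of these data known. Alternatives were other offsets, normalization, probe filters, arrays in the fit, the block, array weights, every probe, and each array left out.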

Additional observations from a re-analysis of the deposited data

Results flagged for a closer look

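For 45 of the 101 named genes the response to anti-IgM differed between the E12 forms past the threshold of the interaction term in limma, and each is given as the mutant response minus the wild-type response on the log2 scale, 25 positive and 20 negative. The genes were in part named by these differences, and none of the values below is explained here.

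Among genes that passed in mutant cells the difference was -1.66 for Trmt61a, -1.65 for Cd63, -1.53 for Slc19a1, -1.53 for Nop56, -0.96 for Sh2d2a, -0.95 for Pdxk and -0.75 for Myo1e. It was 1.66 for Nxpe2, 0.90 for Ephx1, 0.86 for Igsf9 and 0.76 for Slc2a6. Cd63, Pdxk, Nxpe2, Ephx1 and Igsf9 were dimmer in untreated mutant than in untreated wild-type cells, and the scale understates changes of dim genes.

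Among growth and metabolic genes it was -2.10 for Srm, -1.28 for Grwd1, -1.003 for Hspa9, -0.98 for Shmt1 and -0.92 for Heatr1. Myc itself differed by -1.56 and its opponent Mxd4 by 1.66. Cell cycle genes gave 1.87 for E2f2, 0.80 for Cdkn2c and 1.14 for Nusap1.

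For receptor and signalling genes the difference was 1.23 for Ptpn6, 1.21 for Ppp3cc, 1.06 for Dgka, 0.80 for Cd79b, -1.89 for Rgs1 and 2.02 for Lrrk2. Transcription factors gave 1.57 for Klf2, 2.02 for Ets1, 0.87 for Ikzf3, -1.86 for Irf4 and -0.73 for Ier2. Secreted and surface proteins gave -2.46 for Plau, -2.10 for Csf1, -1.07 for Cd86, 1.99 for Ccr6 and 1.24 for Pecam1. Interferon-induced GTPases gave 1.67 for Gbp2 and 1.42 for Gbp3. The others were -2.35 for Rgcc, 2.41 for Snx29, 2.18 for Arhgef18, 1.43 for Abi3, 1.49 for Ypel3 and 0.91 for N4bp2l1.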

How the results depend on the processing

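The count of genes past the threshold with mutant E12, 23, was 11 with an offset of 16, 49 with no joint quantile step, 37 with no filter on dim probes, 7 when the wild-type arrays were left out of the fit and 717 with array weights estimated from the data. Leaving out single arrays gave 2 to 57. The difference of responses, 698 genes, was 463 with an offset of 16, 385 with no joint quantile step and 2327 with array weights, and leaving out single arrays gave 371 to 810. The causes were not tested. An offset of 100, a detection limit met on all 12 arrays and a test of every probe moved neither count by over 1.5 times. With the replicate number as a block within each form, the counts were 215 and 1402, and 207 genes passed with the block when the fit held the 6 mutant arrays alone. All 23 genes were among the 215, of which 139 were higher and 76 lower. With the block Ccl4, Ccl3, Egr3, Hivep3 and Cd72 passed (adjusted p from 1.18e-04 to 0.00626 in limma). So did 16 of 47 ribosome biogenesis factors, all higher, and 3 higher and 1 lower of 20 immediate early factors. The block gave 139 higher and 76 lower over all 10050 genes. Same-numbered arrays of mutant cells deviated from their group means with correlations of 0.608, -0.0455 and 0.547 (wild type 0.289, 0.177 and 0.185). Every wild-type array correlated best with its own number, but not every mutant array did, so the numbers were not taken as pairs. Of 478 values of called genes under the alternatives, 291 stayed past the threshold, 187 did not and 0 changed sign. Of 1643 values of uncalled genes 176 passed, and 29 changed sign without passing. With array weights these were Tcf3 (0.15), Tyrobp (-0.0497), Fcer1g (-0.18), Prf1 (-0.19), Cxcl12 (-0.0256), Rgcc (-0.0924), Csf1 (0.0276), Snx29 (0.37) and Fos (0.0819). Over single arrays left out, the range was -0.47 to 0.28 for Tcf3, -0.18 to 0.41 for Cd8b1, -0.0315 to 0.34 for Fcer1g, -0.0814 to 0.26 for Nkg7, -0.36 to 0.53 for Prf1, -0.00493 to 0.23 for Cxcl12, -0.0615 to 0.34 for Rgcc, -0.20 to 0.16 for Csf1, -0.68 to 0.0539 for Snx29, -0.23 to 0.64 for Egr1 and -0.12 to 0.27 for Myc. With 3 arrays per group the number of arrays limits the precision, and genes near the detection limit have only bounds.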
